A study of Rattus norvegicus with 23 samples.

Results

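The genes described here are 10 components of Wnt signalling at the cell surface and just below it, chosen by symbol: the secreted antagonists Sfrp1, Sfrp2, Sfrp4 and Frzb, the Frizzled receptors Fzd1, Fzd2 and Fzd4, the co-receptors Lrp5 and Lrp6, and beta-catenin (Ctnnb1). All 10 are among the 11283 genes of the authors' tables of comparisons, and 9 are among the 10723 genes with a value in every library at 12 weeks. Sfrp4 is covered by the tables of comparisons only. The samples are polyadenylated RNA from heart muscle of Sprague-Dawley rats. In the MI+TRD groups a myocardial infarction (MI) was made by ligating the left coronary artery through a left thoracotomy, and a device called TRD, on which the labels say nothing more, was implanted in a second operation. The MI groups had the infarct operation alone, so the infarct is common to both arms, and no uninjured or second-operation-only group was analysed here. At 12 weeks there were 6 MI+TRD and 6 MI libraries, and at 6 weeks 5 MI+TRD and 6 MI libraries. Neither the age of the rats nor the part of the heart sampled is given by the labels, and separate animals are not stated, so each p-value reflects only how much these samples vary, which may be technical.

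Wnt proteins are secreted lipid-modified ligands that bind the cysteine-rich domain of a Frizzled receptor and, in the canonical branch, an Lrp5 or Lrp6 co-receptor. That binding stalls the complex that destroys beta-catenin, which then enters the nucleus and works with TCF/LEF factors, while another pool of beta-catenin sits at cell junctions. Secreted Frizzled-related proteins carry a Frizzled-like cysteine-rich domain of their own and can hold Wnt ligands away from the receptors. In the injured heart these secreted proteins are known mainly as products of fibroblasts and other stromal cells.

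The cardiomyocyte markers were abundant in every 12-week library, with summed levels of 34928 to 56578 normalized counts in MI+TRD and 42126 to 67234 in MI. The libraries held 7197118 to 10304156 reads as recovered from the values. Markers of the atrium differed widely between libraries, from 137 to 3341 in MI+TRD and from 221 to 11988 in MI (5 of 6 listed markers present, summed). Most of this sum is Nppa and Dkk3. MI replicate 4 had 851 of Nppa with 2.32 of the atrial light chain gene Myl7, and MI+TRD replicate 6 had 944 with 2.47. The sum alone therefore does not measure the amount of atrial tissue. MI+TRD replicates 1, 4 and 5 stood apart with 88.3, 234 and 465 normalized counts of the alpha-globin gene Hba2, against 0.498, 2.71 and 1.43 in MI+TRD replicates 2, 3 and 6 and 0.809 to 25.7 in MI. Summed macrophage markers (14 of 14 present) ran from 60.6 to 2180 in MI+TRD and from 86.9 to 231 in MI, with the highest value in MI+TRD replicate 6. Summed epicardial and mesothelial markers (8 of 11 present) ran from 22.7 to 97.6 in MI+TRD and from 15.7 to 30.2 in MI (exact permutation p = 0.0216, adjusted p = 0.238 over 11 lists). Since whole tissue was sequenced, fewer cells of a type and less RNA per cell cannot be told apart.

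With the 2 groups compared at 12 weeks by limma, 0 of the 9 Wnt components passed an adjusted p of 0.05 and 0 had an unadjusted p below 0.05. Over all 10655 genes tested, 0% passed the adjusted threshold and 21.9% had an unadjusted p below 0.05, of which those higher in MI+TRD made up 2.8% of all genes and those lower 19.1%. With edgeR on recovered reads 0 genes of all passed the adjusted threshold, and with DESeq2 18 did (0.169%). DESeq2 gave no adjusted p for Sfrp2, Frzb and Fzd2, and none below 0.05 for the other 6. At an unadjusted p below 0.05 there were 2 members (Fzd1 and Lrp6, both higher) with equal column totals, where 15.2% of all genes were called, and 1 (Sfrp1, lower) with replicate number as a block, where 19.8% were. No member had groups that did not overlap with MI+TRD higher, as 0.113% of all genes did, or with MI+TRD lower (1.59%). The members' log2 fold changes of MI+TRD over MI had a median of 0.13, with 5 above 0 and 4 below, against a median of −0.14 over all genes tested. Relative to that median, which was 0.01 after median ratio scaling and 0.08 with equal column totals, the members ran from −0.36 (Sfrp1) to 0.78 (Sfrp2), with Sfrp1 and Fzd2 below it. Levels are given below as normalized counts, a per-library scale without correction for gene length, so they are compared between libraries and not between genes. Ranges and overlaps are on this deposited scale unless stated. Its column totals ran from 369333 to 398879 in MI+TRD and from 388572 to 540053 in MI.

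**Figure D1:**
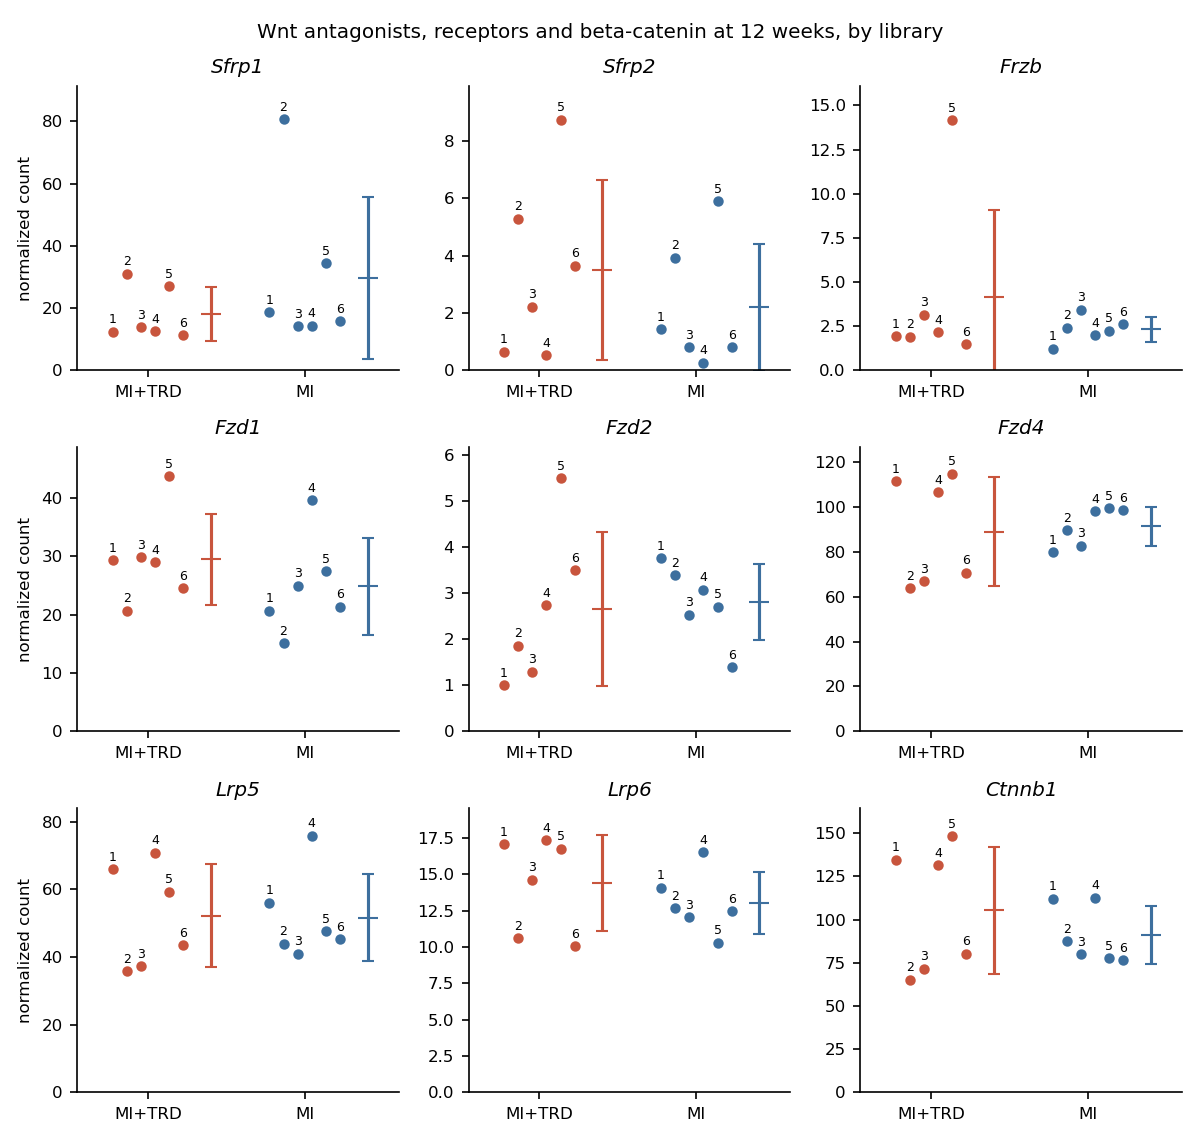
Normalized counts of 9 Wnt components in each 12-week library, with replicate numbers beside the points, MI+TRD at the left and MI at the right of each panel. Horizontal marks and bars are the mean and SD of 6 libraries, which stop at 0 where the SD exceeds the mean. Sfrp1 is highest in MI replicate 2, Frzb in MI+TRD replicate 5, and Fzd4 in MI+TRD lies on both sides of the MI range.

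Among the secreted antagonists, Sfrp1 (chromosome 16, 73372007 to 73410778, minus strand, rn6), an inhibitor that binds both Wnt ligands and Frizzleds, was high in a few libraries of each group. It measured 12.4, 31.0, 13.9, 12.6, 27.1 and 11.3 normalized counts in MI+TRD replicates 1 to 6. It measured 18.8, 80.7, 14.2, 14.3, 34.5 and 15.7 in MI replicates 1 to 6. In both groups replicates 2 and 5 were the highest. On the deposited scale 4 MI+TRD libraries lay below every MI library while the groups overlapped. Relative to the library median on a log2 scale, only MI+TRD replicate 6 did (0.087). MI+TRD replicates 1, 3 and 4 (0.46, 0.65 and 0.48) lay above MI replicate 4 (0.34), the lowest MI library. The mean was 18.0 ± 8.66 in MI+TRD and 29.7 ± 26.1 in MI (SD, n = 6 each), a log2 fold change of −0.50 (SE 0.40, 95% interval −1.35 to 0.35, limma adjusted p = 0.498). The sign of this difference turned with atrial markers as a covariate, where it was 0.10 (SE 0.21), in a fit chosen after seeing the data. Without MI replicate 2, the highest library, the log2 fold change was −0.14.

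Sfrp2 (chromosome 2, 182723732 to 182731278, plus strand), a stromal Frizzled-related protein, had few reads in several libraries. It measured 0.649, 5.30, 2.23, 0.527, 8.75 and 3.66 normalized counts in MI+TRD replicates 1 to 6. It measured 1.45, 3.93, 0.817, 0.270, 5.91 and 0.813 in MI replicates 1 to 6. Replicates 2 and 5 were again the highest of each group, and 5 of 6 MI+TRD libraries lay inside the MI range. The mean was 3.52 ± 3.14 in MI+TRD and 2.20 ± 2.23 in MI (SD, n = 6 each), a log2 fold change of 0.63 (SE 0.68, 95% interval −0.81 to 2.08, limma adjusted p = 0.632). Leaving out single libraries moved it between 0.27 (without MI+TRD replicate 5, and likewise without MI replicate 4) and 1.01 (without MI replicate 5). These values rest on 9 to 222 reads in MI+TRD and 4 to 143 in MI. With atrial markers as a covariate the log2 fold change was 1.52 (SE 0.49, limma unadjusted p = 0.00723, adjusted p = 0.281), while 15.7% of all genes had an unadjusted p below 0.05 in that fit.

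Frzb (chromosome 3, 67635605 to 67668773, minus strand), also known as Sfrp3, was set apart by 1 library. It measured 1.95, 1.91, 3.16, 2.16, 14.2 and 1.47 normalized counts in MI+TRD replicates 1 to 6, and 1.23, 2.43, 3.43, 2.0, 2.26 and 2.62 in MI replicates 1 to 6. Only MI+TRD replicate 5 lay outside the MI range. The mean was 4.13 ± 4.94 in MI+TRD and 2.33 ± 0.724 in MI (SD, n = 6 each), a log2 fold change of 0.34 (SE 0.43, 95% interval −0.57 to 1.25, limma adjusted p = 0.690). Without MI+TRD replicate 5 the log2 fold change was −0.10, while on recovered reads with all libraries it was 0.97 with both edgeR (unadjusted p = 0.0877) and DESeq2 (unadjusted p = 0.0603).

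The promoter windows of the antagonists Sfrp2 and Frzb, the pair for which the RefSeq table has an entry, are shown because these genes had the widest relative ranges across libraries. Each window runs from 250 bases before to 50 after the annotated start, in RefSeq build GRCr8, at chr2:171387286-171387585 on the plus strand for Sfrp2 and at chr3:85772047-85772346 on the minus strand for Frzb. Capitals mark the letters CTTTG, the core of the TCF/LEF motif, on either strand.
Sfrp2: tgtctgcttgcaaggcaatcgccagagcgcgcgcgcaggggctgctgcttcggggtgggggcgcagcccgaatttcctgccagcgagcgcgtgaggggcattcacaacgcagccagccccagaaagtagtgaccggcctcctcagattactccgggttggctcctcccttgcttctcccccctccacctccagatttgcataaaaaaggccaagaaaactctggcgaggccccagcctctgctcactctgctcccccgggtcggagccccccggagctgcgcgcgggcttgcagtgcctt
Frzb: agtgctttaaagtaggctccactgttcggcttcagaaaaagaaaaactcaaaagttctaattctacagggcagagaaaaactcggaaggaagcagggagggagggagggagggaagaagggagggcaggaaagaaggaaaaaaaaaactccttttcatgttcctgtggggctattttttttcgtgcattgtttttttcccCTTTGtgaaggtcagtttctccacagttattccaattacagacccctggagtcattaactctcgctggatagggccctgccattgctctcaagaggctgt
The core was found in the Frzb window and not in the Sfrp2 window. It occurs in 53.8% of 33469 promoter windows of the same length on both strands, so its presence is common. The longer forms CTTTGAA and CTTTGAT, which include the core, are in 8.73% of windows and in neither of these. The Sfrp2 window had 65% G and C with 21 CpG dinucleotides and the Frzb window 45.3% with 4, against medians of 51.7% and 7 over all windows.

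The Frizzled receptors differed more within MI+TRD than between the groups. Fzd4 (chromosome 1, 153589471 to 153598377, plus strand), a receptor for Wnt ligands and for norrin that is prominent in vessels, measured 111, 63.8, 66.8, 107, 115 and 70.6 normalized counts in MI+TRD replicates 1 to 6. It measured 79.9, 89.5, 82.7, 98.1, 99.4 and 98.4 in MI replicates 1 to 6. No MI+TRD library lay inside the MI range: replicates 1, 4 and 5 were above it and replicates 2, 3 and 6 below it. The mean was 89.0 ± 24.2 in MI+TRD and 91.3 ± 8.59 in MI (SD, n = 6 each), a log2 fold change of −0.08 (SE 0.17, 95% interval −0.43 to 0.28, limma adjusted p = 0.832). Its sign turned with median ratio scaling, equal totals, quantile normalization, edgeR and DESeq2, between 0.075 and 0.16. Without MI+TRD replicates 1, 4 and 5 it was −0.44 (limma unadjusted p = 0.00417, adjusted p = 0.382), where 12.4% of all genes had an unadjusted p below 0.05. These were its highest libraries of all, and the MI+TRD libraries kept all lay below the MI range. That value therefore follows from the choice of libraries.

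Fzd1 (chromosome 4, 26470864 to 26475263, plus strand), a receptor of the canonical branch, measured 29.3, 20.7, 29.9, 29.0, 43.7 and 24.5 normalized counts in MI+TRD replicates 1 to 6. It measured 20.7, 15.1, 25.0, 39.6, 27.4 and 21.4 in MI replicates 1 to 6. The groups overlapped, with 4 of 6 MI+TRD libraries above the MI mean. The mean was 29.5 ± 7.81 in MI+TRD and 24.9 ± 8.36 in MI (SD, n = 6 each), a log2 fold change of 0.27 (SE 0.21, 95% interval −0.19 to 0.72, limma adjusted p = 0.496).

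Fzd2 (chromosome 10, 90550147 to 90552058, plus strand), a receptor that also serves Wnt5a-type ligands, measured 0.999, 1.86, 1.30, 2.74, 5.49 and 3.5 normalized counts in MI+TRD replicates 1 to 6. It measured 3.76, 3.40, 2.53, 3.08, 2.71 and 1.40 in MI replicates 1 to 6. The MI+TRD values spread beyond the MI range at both ends, with 1 library above it and 2 below, on 19 to 139 reads per library over both groups. The mean was 2.65 ± 1.67 in MI+TRD and 2.81 ± 0.824 in MI (SD, n = 6 each), a log2 fold change of −0.23 (SE 0.35, 95% interval −0.97 to 0.52, limma adjusted p = 0.756).

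The co-receptors and beta-catenin shared the high values of MI+TRD replicates 1, 4 and 5. Ctnnb1 (chromosome 8, 129617853 to 129627363, plus strand), the transducer of the canonical branch, measured 135, 65.4, 71.7, 132, 148 and 80.4 normalized counts in MI+TRD replicates 1 to 6. It measured 112, 87.4, 80.0, 113, 77.6 and 76.7 in MI replicates 1 to 6. In MI+TRD replicates 1, 4 and 5 were above every MI library and replicates 2 and 3 below. The mean was 105 ± 36.7 in MI+TRD and 91.1 ± 17.0 in MI (SD, n = 6 each), a log2 fold change of 0.15 (SE 0.21, 95% interval −0.30 to 0.60, limma adjusted p = 0.726). Without those 3 libraries it was −0.31, in the opposite direction. They were its highest libraries of all, so leaving them out was bound to lower the value.

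Lrp5 (chromosome 1, 218816833 to 218920095, minus strand) measured 66.0, 35.9, 37.4, 70.9, 59.4 and 43.5 normalized counts in MI+TRD replicates 1 to 6, and 56.1, 44.0, 41.0, 75.8, 47.7 and 45.2 in MI replicates 1 to 6. Its group means were 52.2 ± 15.2 in MI+TRD and 51.6 ± 12.9 in MI (SD, n = 6 each), a log2 fold change of −0.00423 (SE 0.20, 95% interval −0.43 to 0.42, limma adjusted p = 0.994). MI replicate 4 was its highest library, with MI+TRD replicates 4, 1 and 5 next, and the sign of so small a difference turned under 10 of 25 alternatives. Lrp6 (chromosome 4, 168194927 to 168297374, minus strand) measured 17.1, 10.6, 14.6, 17.4, 16.8 and 10.1 in MI+TRD replicates 1 to 6, and 14.1, 12.7, 12.0, 16.5, 10.3 and 12.5 in MI replicates 1 to 6. MI+TRD replicates 1, 4 and 5 again lay above every MI library. Its means were 14.4 ± 3.31 in MI+TRD and 13.0 ± 2.11 in MI (SD, n = 6 each), a log2 fold change of 0.13 (SE 0.17, 95% interval −0.24 to 0.49, limma adjusted p = 0.715). Both proteins are single-pass receptors of the LDL receptor family that bind Wnt ligands next to a Frizzled.

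**Figure D2:**
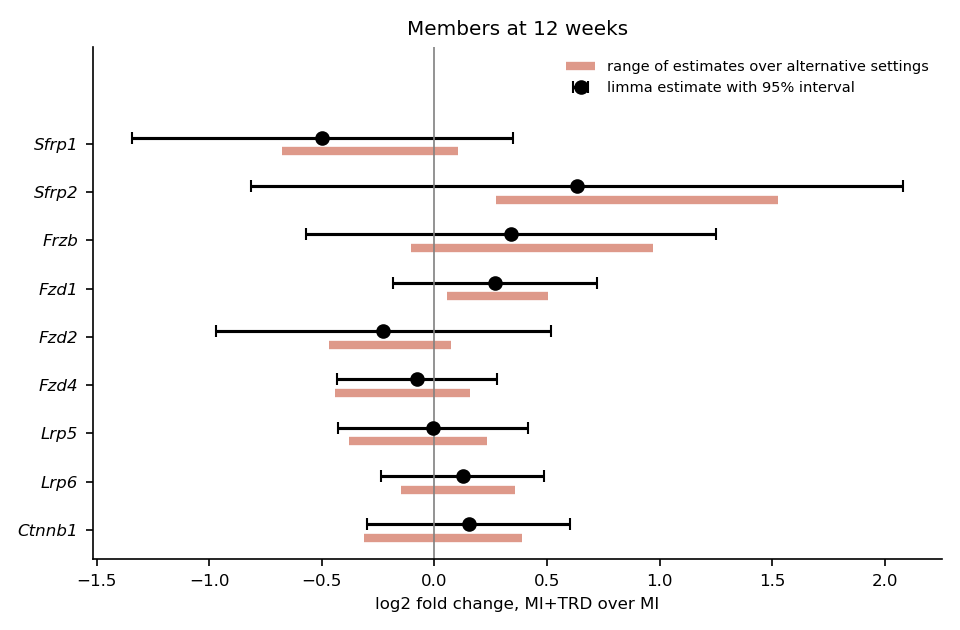
Log2 fold change of MI+TRD over MI at 12 weeks for 9 Wnt components. Black points and bars are the limma estimates with their 95% intervals, and coloured bars span the estimates under 25 alternative settings. Every interval includes 0, and the estimates of Sfrp2 and Fzd1 stay above 0 in all 25 settings.

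Levels of some components moved with cell type markers across the 12 libraries. Each of the 9 genes was set against the mean log2 level of 11 marker lists, both relative to the library median, and p-values were adjusted over these 99 relations. Sfrp1 rose with the atrial markers (Nppa, Sln, Myl4, Myl7 and Dkk3), with Pearson's r of 0.895 (permutation p = 0.00034, adjusted p = 0.0155) and Spearman's rho of 0.804 (permutation p = 0.00257, adjusted p = 0.0636). Within the groups r was 0.787 in MI+TRD (exact p = 0.0458) and 0.976 in MI (exact p = 0.00278), and r was 0.734 without MI+TRD replicate 2 and MI replicate 2. The atrial light chain gene Myl7 measured 0.0999, 614, 2.37, 0.475, 33.9 and 2.47 normalized counts in MI+TRD replicates 1 to 6, and 81.8, 3170, 6.58, 2.32, 321 and 27.7 in MI replicates 1 to 6. Its highest libraries, MI replicate 2, MI+TRD replicate 2 and MI replicate 5, were also the 3 highest for Sfrp1. Dkk3, a Dickkopf-family gene, stands in both the atrial list and the Wnt list. Sfrp1 was also related to the adipocyte (r = 0.911, permutation p = 0.00047, adjusted p = 0.0155; rho = 0.692, permutation p = 0.0156, adjusted p = 0.133) and Schwann cell markers (r = 0.803, permutation p = 0.00089, adjusted p = 0.0220; rho = 0.825, permutation p = 0.00154, adjusted p = 0.0508). Without the 2 libraries farthest from the median, those values of r were 0.790 and 0.791. Within the groups they were 0.747 in MI+TRD and 0.976 in MI for adipocyte markers, and 0.867 in MI+TRD and 0.841 in MI for Schwann cell markers. The part of tissue composition in the Sfrp1 difference between groups was not tested. The covariate fit above was chosen after seeing the data, with a covariate that itself follows Sfrp1, so it is no such test.

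Sfrp2 rose with fibroblast markers such as Pdgfra, Dcn and Col1a1, with r of 0.793 (permutation p = 0.00287, adjusted p = 0.0416) and rho of 0.762 (permutation p = 0.00525, adjusted p = 0.0785). Within the groups r was 0.836 in MI+TRD (exact p = 0.0431) and 0.759 in MI (exact p = 0.103), and r was 0.824 without MI+TRD replicates 4 and 6. Against activated fibroblast markers such as Postn, rho was 0.853 (permutation p = 0.00076, adjusted p = 0.0376) and r was 0.703 (permutation p = 0.00709, adjusted p = 0.0670). That r was 0.818 without MI+TRD replicates 5 and 6, 0.699 within MI+TRD and 0.780 within MI. Against epicardial and mesothelial markers Sfrp2 had r of 0.654 (permutation p = 0.0244, adjusted p = 0.141) and rho of 0.497 (permutation p = 0.103, adjusted p = 0.305), with r of 0.637 without MI+TRD replicates 2 and 6. Within the groups that r was 0.853 in MI+TRD (exact p = 0.0431) and 0.519 in MI (exact p = 0.292). Summed fibroblast markers, 15 of 16 in the table, ran from 1672 to 4594 in MI+TRD and from 2173 to 3591 in MI, and the summed activated markers from 72.2 to 1560 in MI+TRD and from 108 to 165 in MI. The difference of neither sum passed the threshold (exact permutation p = 0.747 and 0.429, adjusted p = 0.821 and 0.673 over 11 marker lists).

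Fzd4 fell as macrophage markers rose, the closest relation by rank of the 99, with rho of −0.951 (permutation p = 0.00005, adjusted p = 0.00495) and r of −0.784 (permutation p = 0.00003, adjusted p = 0.00297). Within the groups r was −0.825 in MI+TRD (exact p = 0.00417) and −0.894 in MI (exact p = 0.00972), and r was −0.896 without MI+TRD replicates 2 and 6. Fzd4 was also related to smooth muscle and pericyte markers (r = 0.704, permutation p = 0.00336, adjusted p = 0.0416; rho = 0.720, permutation p = 0.0111, adjusted p = 0.110), with r of 0.597 without MI+TRD replicates 4 and 5, 0.720 within MI+TRD and 0.536 within MI. Ctnnb1 rose with red cell markers, with r of 0.819 (permutation p = 0.00113, adjusted p = 0.0224) and rho of 0.748 (permutation p = 0.00671, adjusted p = 0.0830). Without MI+TRD replicates 4 and 5 that r was 0.576, so part of the relation rests on them, and it was 0.846 within MI+TRD and 0.660 within MI. Lrp5 had r of 0.764 (permutation p = 0.00332, adjusted p = 0.0416) and rho of 0.769 (permutation p = 0.00486, adjusted p = 0.0785) with the same list, and r of 0.672 without those libraries, 0.771 within MI+TRD and 0.737 within MI. All values share the library median as their base. No other relation of the 99 had an adjusted p below 0.05 by r or rho.

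**Figure D3:**
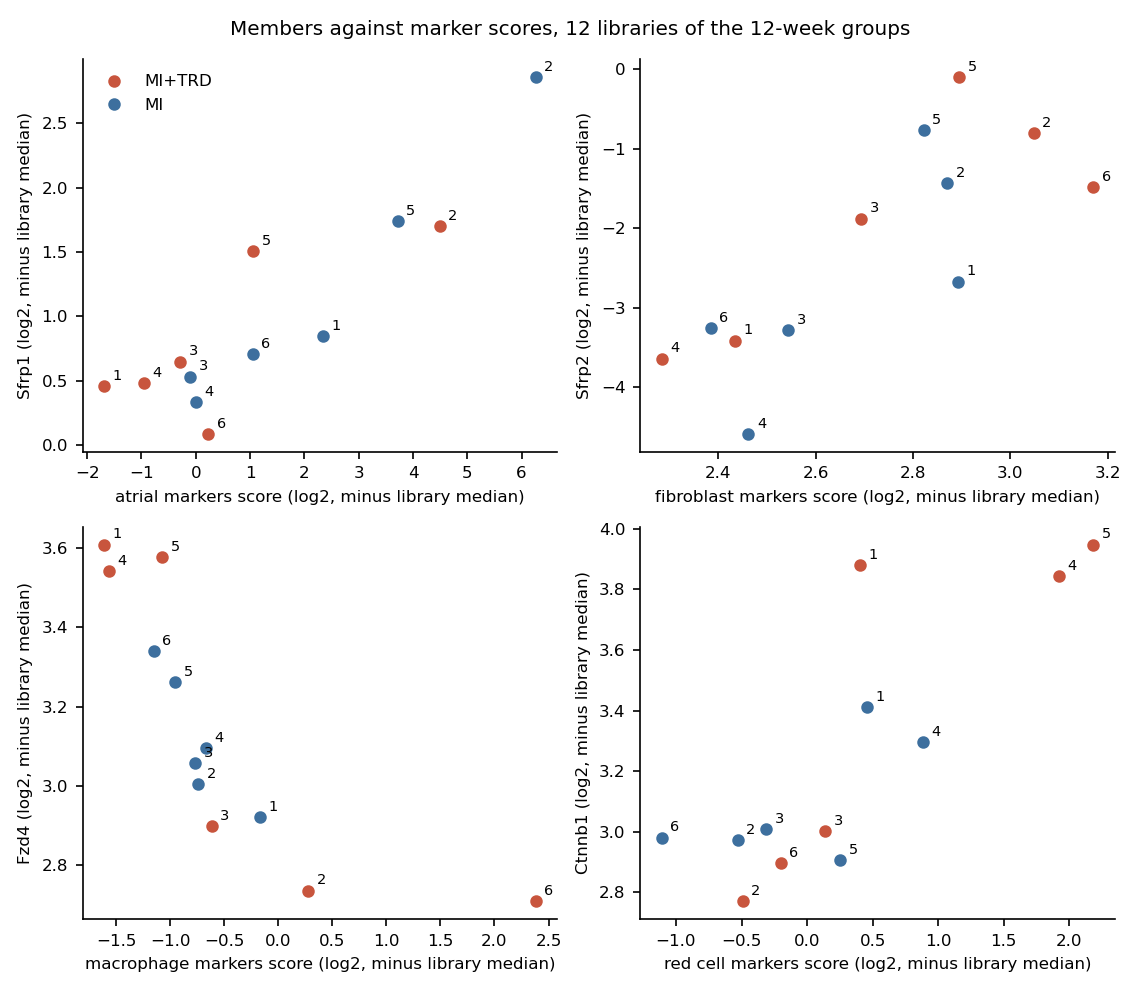
Log2 level of Sfrp1, Sfrp2, Fzd4 and Ctnnb1 (y axes) against the mean log2 level of atrial, fibroblast, macrophage and red cell markers (x axes), both relative to the library median, in 6 MI+TRD and 6 MI libraries with replicate numbers. Sfrp1, Sfrp2 and Ctnnb1 are higher where their marker score is higher (r of 0.895, 0.793 and 0.819), and Fzd4 is lower where the macrophage score is higher (r of −0.784).

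The genes most like each antagonist over the 12 libraries were found among the other 10654 tested, by Pearson's r of log2 levels relative to the library median, as a description. For Sfrp1 they were Mybphl, a myosin-binding protein gene of the atrium (r = 0.949), Psrc1 (0.945), the muscle myosin-binding protein gene Mybpc1 (0.941), Atp1b4 (0.937) and the myostatin gene Mstn (0.934). Mybphl measured 0.0398 to 36.2 normalized counts in MI+TRD and 0.123 to 184 in MI, with its highest value in MI replicate 2. For Sfrp2 they were the growth factor gene Tgfb2 (0.898), Wisp2 (0.893), Mpp2 (0.889), Calml3 (0.863) and the microtubule-binding protein gene Mapre1 (0.862). Wisp2, also named Ccn5, is a matricellular gene commonly listed as a Wnt target. For Frzb they were Kcnma1 (0.925) and Kcnmb1 (0.886), the pore and an auxiliary subunit of the calcium-activated BK potassium channel of smooth muscle, with Zfp639 (0.915), Dzip1l (0.896) and Anapc1 (0.887). Kcnmb1 measured 6.12 in MI+TRD replicate 5, the library that set Frzb apart, where MI+TRD replicates 1, 2, 3, 4 and 6 ran from 0.477 to 1.11 and MI from 0.862 to 1.24. Mybphl, Psrc1, Mybpc1, Atp1b4, Mstn, Calml3 and Kcnma1 lay below 0.208 normalized counts, the constant added before the log, in several libraries. Calml3 and Kcnma1 were highest in MI+TRD replicate 5 and the others in MI replicate 2, so their r rests largely on a few libraries. Zfp639 (11.6), Dzip1l (15.7) and Anapc1 (25.1) were also highest in MI+TRD replicate 5, as were Tgfb2 (38.5) and Wisp2 (13.3). Every gene listed for Frzb thus peaked in the library that set Frzb apart.

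At 6 weeks, where only the authors' deposited table of the comparison was used, Sfrp4 and Sfrp2 had the highest ratios among the 10 genes. Sfrp4, a Frizzled-related protein known from remodelling connective tissue, had least-squares means of 2.02 in MI+TRD and 0.364 in MI in the authors' deposited table, a ratio of 5.55 (p = 0.0184, step-up false discovery rate 0.452). The Sfrp4 mean in MI is low and no value per library was used, so how many libraries carry its ratio is not known. Sfrp2 had 16.8 in MI+TRD and 5.46 in MI in the authors' deposited table, a ratio of 3.07 (p = 0.0212, step-up false discovery rate 0.470). These were the 2 of 10 at a p below 0.05, and neither passed the false discovery rate of 0.05, which 0% of 11283 genes did. At 6 weeks 4.42% of all genes were higher and 4.09% lower at a p below 0.05 in the authors' deposited table.

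The other 8 members had ratios between 0.841 (Fzd4) and 1.18 (Fzd2) at 6 weeks in the authors' deposited table. Sfrp1 stood at 1.04 (20.7 in MI+TRD and 19.98 in MI), Frzb at 0.883, Fzd1 at 1.07, Lrp5 at 0.983, Lrp6 at 0.849 and Ctnnb1 at 0.846 (84.0 in MI+TRD and 99.3 in MI). The median log2 ratio was 0.01 for the 10 members and −0.04 for all genes. Beside these values, 8 of 15 fibroblast markers, 5 of 12 activated fibroblast markers and 12 of 14 macrophage markers had a p below 0.05 with higher levels in MI+TRD at 6 weeks, and none with lower levels. Of 12 endothelial markers, 4 had a p below 0.05 with lower levels in MI+TRD. So did 2 of 7 adipocyte markers and 1 of 9 epicardial and mesothelial markers, while the remaining marker lists had none in either direction. Over all genes, 4.42% were higher and 4.09% lower at that p. No marker of these lists passed the false discovery rate. The ratios of the 12 activated fibroblast markers in the authors' deposited table ran from 0.840 (Tagln) to 9.48 (Postn), with Acta2, Tagln, Cilp and Chad below 1. The part of these cell types in the Sfrp2 and Sfrp4 ratios was not tested.

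At 12 weeks the authors' deposited table gave ratios of 0.734 for Sfrp4 (0.212 in MI+TRD and 0.288 in MI, p = 0.508) and 1.59 for Sfrp2 (3.58 in MI+TRD and 2.26 in MI, p = 0.392). Sfrp1 stood at 0.603, Frzb at 1.76, and the receptors, co-receptors and Ctnnb1 between 0.923 (Fzd2) and 1.16 (Fzd1). There, 0 of the 10 members passed a false discovery rate of 0.05, against 2.94% of all genes. A p below 0.05 was found for 0 of 10, while 2.12% of all genes were higher and 22% lower at that level. The difference between the 6-week and 12-week effects was not tested, since each table stands alone and levels may be scaled differently in them.

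**Figure D4:**
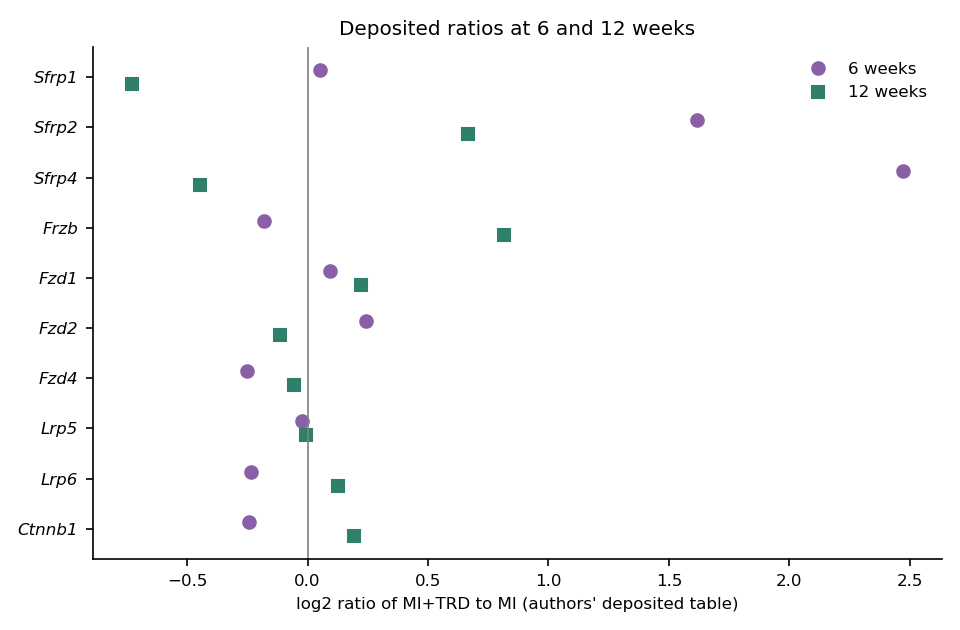
Log2 ratio of MI+TRD to MI for the 10 Wnt components in the authors' deposited tables, at 6 weeks (circles) and 12 weeks (squares). Sfrp2 and Sfrp4 lie farthest to the right at 6 weeks, at 1.62 and 2.47, while at 12 weeks Sfrp4 lies below 0 at −0.45.

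The rest of the pathway was described from lists of 130 other genes by role, of which 84 were tested at 12 weeks. By limma 0 passed an adjusted p of 0.05, 7 were lower at an unadjusted p below 0.05 (8.33%, against 19.1% of all genes) and 0 higher (0%, against 2.8%). The median log2 fold change of the 84 was −0.04, against −0.14 over all genes. Relative to the median of all genes, the 7 ran from −0.68 (Sfrp5) to −0.18 (Csnk1g2). Their calls are on the deposited scale and were not followed under other scalings. For each of the 7, all 6 MI+TRD values lay under the mean of MI. As the 7 were picked by these same values, this is a description and adds no support. The same held for several pathway genes outside the 7, such as Dkk3 at a limma unadjusted p of 0.576.

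Among the ligands, 2 of 6 tested were lower by that measure. Wnt9a measured 2.10, 3.05, 2.18, 3.11, 2.51 and 2.35 normalized counts in MI+TRD replicates 1 to 6, and 3.81, 4.51, 3.31, 5.62, 4.14 and 3.21 in MI replicates 1 to 6. On the deposited scale the groups did not overlap, which held for 1.59% of all genes in that direction. As column totals differ, this may depend on the scale, which was not examined. The log2 fold change of Wnt9a was −0.63 (SE 0.18, limma adjusted p = 0.133), or −0.49 relative to the median of all genes. In the authors' deposited table its ratio was 0.610 with a step-up false discovery rate of 0.0484, the single pathway gene past 0.05 there. Wnt11, a ligand of the non-canonical branch, measured 4.54 ± 1.39 in MI+TRD and 7.17 ± 1.87 in MI (SD, n = 6 each; log2 fold change −0.66, SE 0.22, limma adjusted p = 0.135). Wnt4 had 5, 7, 0, 0, 0 and 133 reads in MI+TRD replicates 1 to 6 and 0 reads in all 6 MI libraries, where a count of 0 allows up to 3 reads per library by counting error alone. Its limma unadjusted p was 0.129, and the library with 133 reads had the highest macrophage, fibroblast, activated fibroblast, and epicardial and mesothelial marker scores of the 12. Their part in the Wnt4 values was not tested.

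Of the other secreted antagonists 1 of 8 was lower at an unadjusted p. This was Sfrp5, the remaining Frizzled-related gene, at 1.90, 2.12, 0.929, 1.0, 1.96 and 1.07 normalized counts in MI+TRD replicates 1 to 6, and 3.44, 7.42, 1.10, 3.08, 2.13 and 1.85 in MI replicates 1 to 6. Its highest library was MI replicate 2, as for Sfrp1, and the groups overlapped. Its log2 fold change was −0.82 (SE 0.36, limma adjusted p = 0.207), and the authors' deposited tables gave ratios of 0.467 at 12 weeks (step-up false discovery rate 0.205) and 0.446 at 6 weeks (0.724). Among other receptors 1 of 11 was lower, Fzd3 at 0.435 ± 0.160 in MI+TRD and 0.877 ± 0.334 in MI (SD, n = 6 each; limma adjusted p = 0.185), on 53 reads in all over the 6 MI+TRD libraries.

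Inside the cell, the scaffold Dvl1, which relays the Frizzled signal, measured 25.1 ± 2.25 in MI+TRD and 34.5 ± 5.04 in MI (SD, n = 6 each), a log2 fold change of −0.45 (SE 0.12, limma adjusted p = 0.133). Of 20 cytoplasmic genes tested the other one lower at an unadjusted p was the casein kinase gene Csnk1g2 (log2 fold change −0.32, SE 0.15). Of 11 nuclear effectors 1 was lower, the TCF/LEF-family gene Tcf7l1 (−0.36, SE 0.17). Relative to the median of all genes, Dvl1 was −0.30, Csnk1g2 −0.18 and Tcf7l1 −0.22. None of 8 common Wnt target genes, 12 genes of the planar polarity and calcium branch, 7 junction partners of beta-catenin, 3 R-spondin axis genes or 2 genes of Wnt secretion had a p below 0.05. Among the targets Nkd2 had the smallest p, with a log2 fold change of −0.41 (SE 0.21), then Myc with −0.58 (SE 0.42) and Wisp2 with 0.61 (SE 0.60).

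At 6 weeks, 5 of 88 other pathway genes (5.68%) were higher and 3 (3.41%) lower at a p below 0.05 in the authors' deposited table, and 0 passed the false discovery rate. These shares are near those of all genes, 4.42% higher and 4.09% lower, so the counts are no result about the pathway, and the genes are given as values. The higher ones were Cthrc1, a secreted collagen-repeat protein that is also in the activated fibroblast list, at a ratio of 7.82, Wisp2 at 5.04, the Wnt5a receptor gene Ror2 at 3.89, the pseudokinase receptor gene Ptk7 at 2.16 and Igfbp4 at 1.67 in the authors' deposited table. The lower ones there were Nkd2 at 0.652, Fzd8 at 0.706 and the destruction complex scaffold gene Apc at 0.723. Their false discovery rates lay between 0.373 and 0.546.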

How the data were processed

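Per the labels' protocols, polyadenylated RNA from myocardium was extracted with the miRNeasy mini kit and read on Illumina instruments. Partek and the build rn6 are named in the submitters' processing notes. For the aligner, counting rules, strand use, scaling and test, the sources used here give nothing. The authors deposited a signal per gene and library at 12 weeks, a normalized count per the file headers, and 2 tables with a p-value, a ratio and an "other" value, the signed fold change, per the file headers. Low values were whole multiples of each library's smallest value (97.2% to 98.6% within 0.1, up to 20 steps), so a value was read as (reads + 1) times that step. Of 10723 genes, 10655 with a mean share equal to at least 0.415 normalized counts were tested.

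The main test was limma 3.58.1 (R 4.3.3; trended eBayes, two-sided, Benjamini-Hochberg over all genes tested) on log2(value + 0.208), which understates changes of low genes. Alternatives used edgeR 4.0.16, DESeq2 1.42.0 and other scalings, pseudocounts, filters and library sets. Permutation tests of relations used 100000 resamples for 12 libraries and were exact within groups, two-sided. Marker sums were compared over all 924 splits. The limma step was tested on simulated reads. The lowest chi-square per degree of freedom between libraries of a group was 14.5, so none counted as repeats.

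The members and lists were chosen with earlier results of these data known. All members are named. Pathway genes are named at an unadjusted p below 0.05 or as up to 3 of a list by smallest p, and the 5 most similar genes per antagonist by r. At 6 weeks, genes at a p below 0.05 were named after their values were seen, as were the named activated fibroblast markers. Older symbols were matched through RefSeq synonyms (Ccn5 as Wisp2), and 5 of 10 members had a promoter entry. Replicate numbers were not taken to pair the libraries.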

Additional observations from a re-analysis of the deposited data

Results flagged for a closer look

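Among the 18 sets of 6 libraries examined (9 genes in each group), 2 held a library far from the others. For normally distributed values chance alone gives about 1 in 20. The rule was applied to normalized counts without a log, where high values stretch the range, so that rate may not hold here. It was not repeated on the log2 scale. Sfrp1 measured 80.7 normalized counts in MI replicate 2, with the next MI library at 34.5, a gap of 0.695 of the group's range against a critical value of 0.625. The same library had the highest Myl7 level of the 12, at 3170. Frzb measured 14.2 in MI+TRD replicate 5, with the next MI+TRD library at 3.16, a gap of 0.867 of the range.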

How the results depend on the processing

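Over 25 alternatives, the 9 log2 fold changes kept their direction and their side of the adjusted threshold in 202 of 225 comparisons and reversed in 23, and Sfrp2 and Fzd1 never reversed. Sfrp2 and Frzb with DESeq2, which kept their direction but had no adjusted p, are counted among the 202. No gene of all passed the adjusted threshold under any limma or edgeR setting, and 18 passed with DESeq2. Fzd4 and Lrp5 were 0.084 and 0.16 with median ratio scaling, 0.16 and 0.23 with equal column totals, 0.075 and 0.14 with quantile normalization, 0.12 and 0.19 with edgeR and 0.12 and 0.20 with DESeq2. Fzd2 was 0.070 with edgeR and 0.074 with DESeq2. Without MI+TRD replicates 1, 4 and 5, Frzb was −0.10, Lrp6 −0.15 and Ctnnb1 −0.31. For Lrp6, Ctnnb1 and Fzd4 these were the highest libraries of all, so a lower value was bound to follow. With the atrial marker covariate, chosen after seeing the data, Sfrp1 was 0.10. Leaving out single libraries gave ranges of −0.10 to 0.11 for Lrp5 (above 0 without MI replicate 1 or 4 or MI+TRD replicate 2, 3 or 6), −0.16 to 0.0086 for Fzd4 (above 0 without MI+TRD replicate 2) and −0.10 to 0.52 for Frzb (below 0 without MI+TRD replicate 5). The ranges without a change of sign were −0.68 to −0.14 for Sfrp1, 0.27 to 1.01 for Sfrp2, 0.14 to 0.42 for Fzd1, −0.47 to −0.018 for Fzd2, 0.063 to 0.22 for Lrp6 and 0.038 to 0.27 for Ctnnb1. The count of members at an unadjusted p below 0.05 was 0, and became 2 with equal column totals (Fzd1 and Lrp6, higher), 1 without MI+TRD replicates 1, 4 and 5 (Fzd4, lower), 1 with the atrial covariate (Sfrp2, higher) and 0 to 1 with single libraries left out (Fzd1, without MI replicate 4, where 15.2% of all genes had such a p). With the replicate block it was 1 (Sfrp1, lower, limma adjusted p = 0.181). The block brought the SE of Sfrp1 to 0.18, where it was 0.40 without. Sfrp1 was lower in the MI+TRD library of all 6 same-numbered pairs on the deposited scale. Relative to the library median it was higher in MI+TRD for numbers 3 (0.65 against 0.53) and 4 (0.48 against 0.34), and lower for the rest. Correlations of same-numbered libraries ran from −0.33 to 0.33, above 0.1 for 4 of 6 numbers, and 3 of 6 MI+TRD libraries (2, 3 and 5) correlated best with their own number. As this did not hold for every number and no label states a pairing, the numbers were not taken to pair the libraries. For these reversals and changed counts the cause was not tested. At 6 weeks the count was 0 by false discovery rate and 2 by p. The split of higher against lower genes at an unadjusted p was 298 against 2033 on the deposited scale, 798 against 878 after median ratio scaling, 701 against 1042 after quantile normalization, 1208 against 412 with equal totals, 852 against 744 with edgeR and 946 against 764 with DESeq2. Low reads limit Sfrp2 and Fzd2, with as few as 4 and 19 reads in a library. Sfrp4 had low means and no value per library, so its reads could not be examined.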
